A study of Rattus norvegicus with 30 samples.

Results

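Of the 22521 probes on the arrays, 182 (0.808%) fell by day 5 in both Q74 lines while they stayed near their day 0 level in both Q23 lines. Of these, 3 pairs of probes read the same on every array, so the members hold 179 distinct measurements. The members were chosen by measured values. After the 2 RNA isolations of each line and day had been averaged, day 5 minus day 0 had to be -0.3 or lower in Q74 line 4 and in Q74 line 6, and smaller than 0.2 in size in Q23 line 1 and in Q23 line 5. All values are those deposited, normalized with VSN and read as natural logs, so a difference of -0.3 stands for a fall to exp(-0.3) of the starting signal. VSN is linear for dim probes, and folds of such probes are understated.

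The cells were rat PC12 cells, a phaeochromocytoma line of chromaffin origin that makes catecholamines. Q23 lines 1 and 5 and Q74 lines 4 and 6 carried a doxycycline-inducible exon 1 fragment of huntingtin, with 23 or 74 glutamines, fused to GFP. RNA was taken from uninduced cells (day 0) and after 1 and 5 days in 1 μg/ml doxycycline, and 24 Illumina RatRef-12 arrays held 2 RNA isolations per line and time. PC12 cells without a construct were given doxycycline in the same way and measured on 6 arrays, 2 on each day. Each construct was represented by 2 independent lines, and other features of a line cannot be told apart from its construct where both lines share them. Probes could not be matched to genes here, so neither the chromaffin markers nor the construct itself was checked and members are described by their levels.

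Exon 1 of huntingtin holds the glutamine stretch whose expansion causes Huntington's disease. Fragments with a long stretch collect in aggregates in the cytoplasm and the nucleus, while fragments with a stretch of normal length stay diffuse. Changes in the transcription of many genes, in both directions, are a known feature of cells and brains with the long fragment. The study chose day 1 as a time around the start of aggregate formation and day 5 as a time when aggregates could be seen.

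The rule first took 747 probes that fell by 0.3 or more in Q74 line 4 and 284 in Q74 line 6, of which 213 fell in both. Of these 213, 31 were set aside by the window on the Q23 lines. In 29 of the 31 a Q23 line fell by 0.2 or more, and in the other 2 a Q23 line rose by that much. The limits cut through a continuous range. The 3 members closest to the limit changed by -0.3001, -0.3003 and -0.3004 in the line with the smaller fall, and the 3 closest probes outside it by -0.2998, -0.2998 and -0.2989. The largest Q23 change inside the window was 0.198 and the smallest outside it was 0.2003. The opposite rule, a rise of at least 0.3 in both Q74 lines with the same window in Q23, took 167 probes.

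The precision rests on the number of arrays. Repeat RNA isolations of a line differed by a median SD of 0.095 for the members and 0.060 for all probes. Array means lay between 5.57 and 5.58 for the lines with a construct and between 5.51 and 5.53 for PC12 cells, so levels in PC12 cells are set against the other lines with this offset beside them.

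The members were mostly well-expressed transcripts. Their mean level in the Q74 lines on day 0 ran from 5.15 to 10.8 with a median of 7.46, against a median of 4.79 over all probes. No member started below the median of all probes. Of the 5630 probes between the median and the 75th percentile (6.35) 40 were members, or 0.71%. Between the 75th and the 90th percentile (7.93) 77 of 3378 probes were members (2.28%), and above it 65 of 2253 (2.89%). Probes that start near the lowest values cannot fall by the amount that the rule asks for, so the lower share among dim probes follows in part from the rule. The 167 rising probes started lower, at a median of 6.13, and 12 of them started below the array median.

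The size of the fall was moderate for most members. The mean of both Q74 lines fell by 0.53 in the median member, or 1.70-fold, with a range of 1.36-fold to 4.46-fold. It fell by less than 0.4 in 32 members, by 0.4 to 0.5 in 45, by 0.5 to 0.75 in 65, by 0.75 to 1 in 27 and by 1 or more in 13. Among the members, all held to the same least fall by the rule, the fall hardly varied with the starting level. Its median was 1.67-fold for members that started below the 75th percentile, 1.70-fold for those up to the 90th percentile and 1.74-fold for those above it. Folds of dim members are understated, so these medians are a description only.

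Falls were deeper in Q74 line 4 than in Q74 line 6. The median change was -0.61 in line 4 and -0.43 in line 6, and line 4 fell further in 139 of the 182 members. The ratio of the line 4 fall to the line 6 fall had a median of 1.36 and ran from 0.452 to 4.63. Across the members, which are not independent replicates, the falls of both lines correlated with r = 0.45 and a Spearman rho of 0.38, after selection on both of them. The median changes in the Q23 lines, held inside the window by the rule, were -0.04 in line 1 and -0.02 in line 5.

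**Figure D1:**
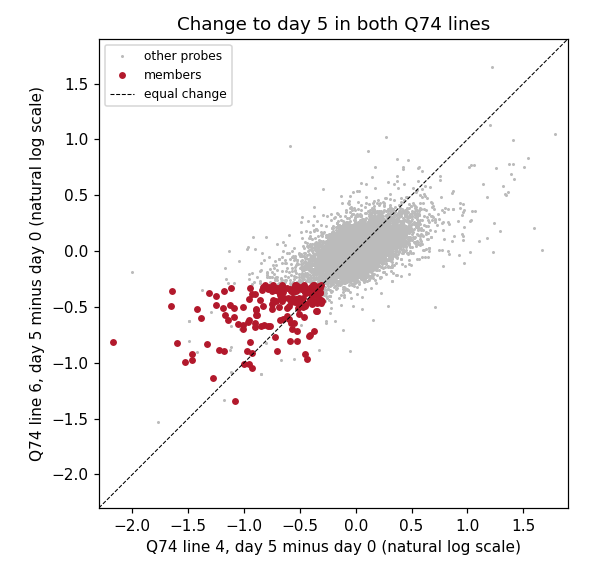
Each point is a probe, with its day 5 minus day 0 value in Q74 line 4 on the x axis and in Q74 line 6 on the y axis, both on the natural log scale. The 182 members are red and all other probes grey. Most members (139) lie above the dashed line of equal change, where line 4 fell further than line 6, and the member farthest to the left fell by 2.18 in line 4 and by 0.81 in line 6.

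Most falls were read on both RNA isolations. In 176 members both day 5 isolations lay below both day 0 isolations in each Q74 line, as in 7.34% of all probes. Over both lines, all 4 day 5 arrays lay below all 4 day 0 arrays in 119 members and in 3.65% of all probes. They lay below all 20 other arrays of the lines with a construct in 89 members and in 0.91% of all probes. These counts use the arrays that chose the members and describe them only.

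The RNA isolations gave a measure of the fall on arrays that had no part in the choice. When the rule was applied to the first isolation of each line and day alone, it took 168 probes. Of these, 162 (96.4%) also fell in both Q74 lines in the second isolation, against 30.5% of all probes. The median changes of these 168 probes in the second isolation were -0.56 in Q74 line 4, -0.34 in Q74 line 6, -0.06 in Q23 line 1 and -0.02 in Q23 line 5. With the isolations exchanged, the rule took 143 probes, and 139 of them (97.2%) fell in both Q74 lines in the first isolation, against 28.4% of all probes. There the median changes were -0.57, -0.44, -0.01 and -0.04 in the same order. Single probes were less stable than the direction. Of the 168 and the 143 probes, 61 in each case met the whole rule in the isolation that had not chosen them. The isolations are technical replicates of the same lines, so these values measure the reading of the arrays and not the spread between lines.

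Array by array, the median of the members fell in both Q74 lines by day 5, as the rule asked of each member. In Q74 line 4 the 2 arrays of day 0 had a median of 7.65 and 7.42, those of day 1 had 7.50 and 7.37, and those of day 5 had 6.77 and 6.81. In Q74 line 6 the medians were 7.41 and 7.28 on day 0, 7.22 and 7.14 on day 1 and 6.90 and 6.83 on day 5. The 12 Q23 arrays lay between 7.25 and 7.51 on all 3 days. All 4 Q74 arrays of day 5 lay below every other array, whereas those of day 0 overlapped with the Q23 arrays. The day 0 and day 5 arrays of both constructs chose the members, so this separation follows from the rule in large part.

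**Figure D2:**
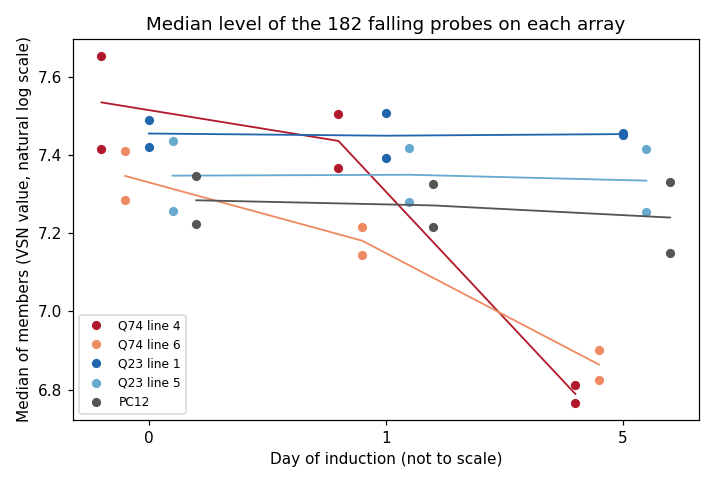
Each point is the median VSN value of the 182 members on 1 array (y axis, natural log scale), by day of induction (x axis, not to scale), and lines join the means of the 2 arrays of a line and day. The arrays of Q74 lines 4 and 6 drop to between 6.77 and 6.90 on day 5, while the Q23 arrays stay between 7.25 and 7.51 and the PC12 arrays between 7.15 and 7.35. The day 0 and day 5 arrays of Q74 and Q23 chose the members.

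Most of the fall came after day 1. The share of the fall that was reached by day 1, taken on the mean of both Q74 lines, had a median of 0.15. It was below 0 in 23 members, which stood higher on day 1 than on day 0, from 0 to 0.25 in 122, from 0.25 to 0.5 in 35 and at least 0.5 in 2. In 181 of the 182 members day 5 lay below day 1 in both Q74 lines. The day 0 and day 5 arrays enter both this share and the rule, so it is given as a description.

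The share reached by day 1 was larger in line 6, the line with the smaller fall in the end, while the day 1 change itself was alike. The median share was 0.11 in Q74 line 4 and 0.20 in Q74 line 6, and line 6 had the larger share in 131 members. A share of at least 0.5 was reached by 2 members in line 4, by 15 in line 6 and by 1 in both. On day 1 the members had changed by a median of -0.08 in Q74 line 4 and -0.09 in Q74 line 6, against -0.01 in Q23 line 1 and -0.02 in Q23 line 5. Both Q74 lines were below day 0 in 114 members (62.6%, against 26.7% of all probes), and neither was in 13. The day 0 arrays of these changes are shared with the rule, so they are a description only. Both Q23 lines were below day 0 in 70 members, but the share of all probes was not taken for the Q23 lines. The 167 rising probes had reached a median share of 0.09 by day 1, and this difference was not tested.

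**Figure D3:**
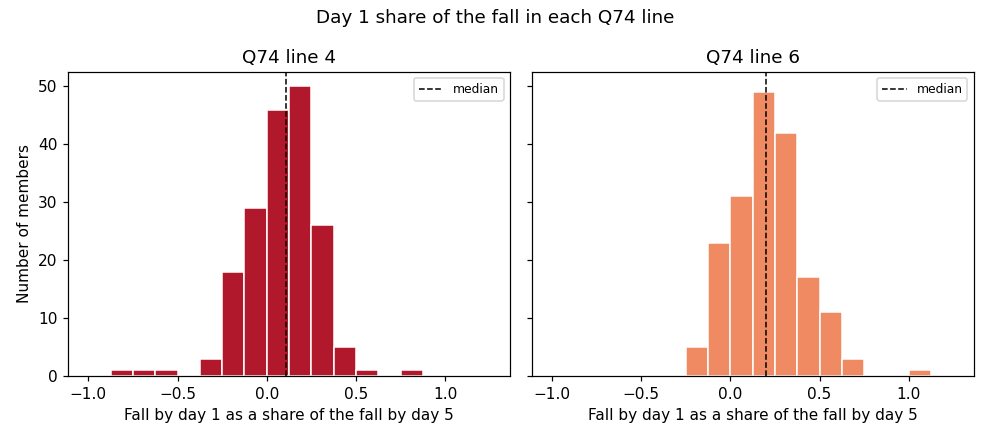
Histograms of the day 1 share of the fall (x axis, fall from day 0 to day 1 over fall from day 0 to day 5, no unit) over the 182 members (y axis, number of members), for Q74 line 4 on the left and Q74 line 6 on the right. The dashed medians are 0.11 and 0.20, and shares below 0 are members that stood higher on day 1 than on day 0.

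On arrays that had not chosen the probes, the early fall was small and uneven. For the 168 probes chosen on the first isolation, the median change to day 1 in the second isolation was -0.08 in Q74 line 4 and -0.06 in Q74 line 6, but also -0.07 in Q23 line 1 and -0.01 in Q23 line 5. For the 143 probes chosen on the second isolation, it was 0.0048 in Q74 line 4, -0.10 in Q74 line 6, 0.01 in Q23 line 1 and -0.02 in Q23 line 5 in the first isolation. The median day 1 share was 0.16 and 0.11 in these readings. The early change in Q74 line 4 and Q23 line 1 thus differed between isolations, and Q74 line 6 was lower on day 1 in both.

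The day 1 arrays played no part in the rule, so the comparison of Q74 with Q23 on day 1 was tested. In limma, fitted to all 22521 probes with n = 2 lines per construct, 1 of the 182 members was lower in the Q74 lines at an adjusted p under 0.05, where 0.0355% of all probes were called lower. Another 1 member was higher, where 0.12% of all probes were. At an unadjusted p under 0.05, 30 members (16.5%) were lower and 5 (2.75%) were higher, against 3.56% and 2.74% of all probes. Both Q74 lines lay below both Q23 lines in 59 members (32.4%), against 17.1% of all probes. This comparison holds differences that the lines already had on day 0, when 35 members lay in this way. The fit holds each line on 3 days as if the values were independent. In a fit to the day 1 arrays alone, with 2 residual degrees of freedom, no member was called, and 33 members (18.1%) were lower at an unadjusted p under 0.05, against 3.25% of all probes. With the line as a random block both calls were made, among 40 probes called in all. Both calls were lost without either Q23 line. Counts without a Q74 line are not given, since they leave 1 line in Q74 and the share of all probes was not taken. When 1 isolation was left out and the rule applied again, no chosen probe was called on the second isolation alone and 1 on the first.

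The member called lower on day 1 was probe ILMN_1369157, which had the largest day 1 share. In Q74 line 4 its isolations read 7.43 and 7.81 on day 0, 7.04 and 7.28 on day 1 and 7.03 and 7.12 on day 5. In Q74 line 6 they read 7.49 and 7.53 on day 0, 6.94 and 7.05 on day 1, and 7.05 and 7.05 on day 5. Both lines were close to their day 5 level on day 1, and the mean share was 0.97. In Q23 line 1 the isolations read 7.60 and 7.80, 7.79 and 7.78, and 7.75 and 7.98 on days 0, 1 and 5. In Q23 line 5 they read 7.84 and 7.89, 7.87 and 7.88, and 7.92 and 7.91. All 8 Q74 arrays of days 1 and 5 thus lay below all 12 Q23 arrays.

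On day 1 its level was 7.08 ± 0.12 (SD, n = 2 lines) in Q74 and 7.83 ± 0.07 (SD, n = 2) in Q23. By limma the levels were -0.76 apart with a standard error of 0.08 (adjusted p = 0.0081), against -0.22 on day 0 and -0.83 on day 5. It was also the 1 member whose change from day 0 to day 1 was called lower in Q74 than in Q23 with the line as a block (difference -0.54, adjusted p = 0.042 from limma), a call made by 0.00444% of all probes on arrays of which those of day 0 are shared with the rule. The day 1 difference lost its call without Q23 line 1 (-0.80, adjusted p = 0.54), without Q23 line 5 (-0.71, adjusted p = 0.58), without the first RNA isolation (-0.67, adjusted p = 0.055) and on the day 1 arrays alone (adjusted p = 0.20). Over the alternatives that kept 2 lines per construct as the replicates, its adjusted p in limma ran from 0.0013 to 0.20. It reached 2.8e-07 only where RNA isolations entered as samples, which counts technical replicates as independent. In PC12 cells the probe read 7.32 and 7.15 on day 0 and 7.32 and 7.17 on day 5.

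The member called higher on day 1 was chosen for description after its values had been seen. It stood far above Q23 before induction, with 7.92 in Q74 line 4 and 8.07 in Q74 line 6 on day 0 against 6.94 in Q23 line 1 and 7.10 in Q23 line 5. On day 1 it read 8.30 and 8.14 in the Q74 lines and 6.95 and 7.13 in the Q23 lines, which limma put at 1.18 above Q23 with a standard error of 0.12 (adjusted p = 0.0097, and 0.16 on the day 1 arrays alone). By day 5 it had come down to 7.48 and 7.10 in the Q74 lines, against 7.08 and 7.13 in the Q23 lines. In PC12 cells it was near the array median on every day, with 4.84, 4.84 and 4.96. Its fall thus brought this probe to the Q23 level in Q74 line 6, while Q74 line 4 stayed above both Q23 lines.

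Within the Q74 lines, limma called a fall over the first day for 3 members, where the line was a block and 0.0444% of all probes were called to fall. ILMN_1369157 was one of these, and the other two had day 1 shares of 0.24 and 0.27. The day 0 arrays of this test are shared with the rule.

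The largest fall was that of probe ILMN_1650075, a bright probe in all lines. In Q74 line 4 its isolations read 9.03 and 8.83 on day 0, 8.36 and 8.34 on day 1 and 6.44 and 7.06 on day 5. In Q74 line 6 they read 8.70 and 8.83, then 8.13 and 8.41, then 7.87 and 8.04. Both lines had fallen on day 1 by a like amount (-0.58 and -0.50), and line 4 went on to fall much further. Q23 line 1 read 8.91 and 9.57 on day 0 and 8.93 and 9.33 on day 5, and Q23 line 5 read 8.60 and 8.72 on day 0 and 8.46 and 8.53 on day 5. The 2 Q23 lines did not overlap with each other on day 5.

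The mean fall of ILMN_1650075 was -1.50, or 4.46-fold, with -2.18 in line 4 and -0.81 in line 6. On day 1 its level was -0.55 from that in Q23 with a standard error of 0.39, which did not pass the threshold in limma (adjusted p = 0.93, and 0.49 at the lowest over the alternatives run). The level in PC12 cells was lower than in the lines on day 0, with 7.98 and 8.05, and stood at 7.95 and 7.94 on day 5. On that day line 6 had come to the PC12 level and line 4 lay below it.

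**Figure D4:**
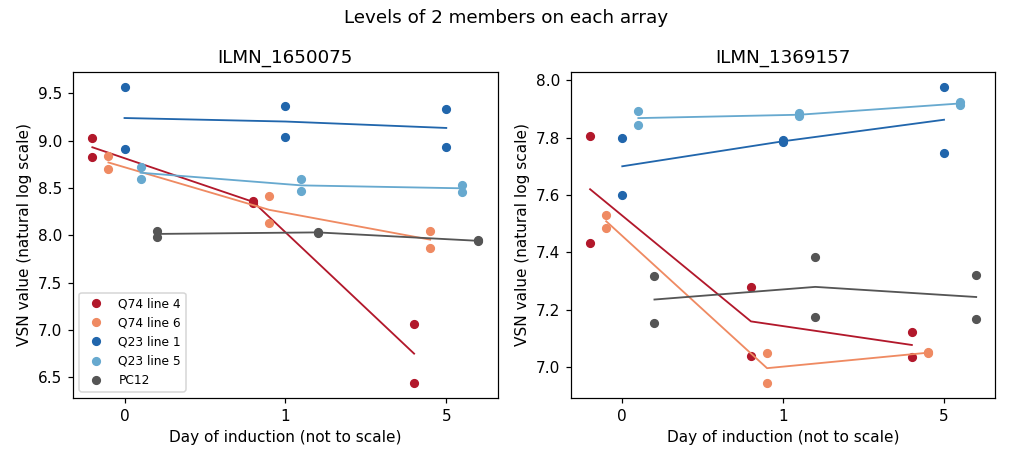
VSN values on each array (y axes, natural log scale, not starting at 0) by day of induction (x axes, not to scale) for ILMN_1650075 on the left and ILMN_1369157 on the right. Points are arrays, and lines join the means of the 2 arrays of a line and day. On the left the fall goes on after day 1, to 6.44 and 7.06 in Q74 line 4, and on the right both Q74 lines are close to their day 5 level on day 1.

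The next 4 members by size of fall started at very different levels. The member with the second largest fall went from 7.38 to 5.84 in Q74 line 4 and from 6.45 to 5.45 in Q74 line 6, and had 5.34 on day 0 in PC12 cells. The third went from 6.65 to 5.18 and from 5.86 to 4.88. The fourth was bright, and went from 9.73 to 8.13 and from 8.97 to 8.15, against 9.67 and 9.52 on day 0 in the Q23 lines. The fifth fell further in line 6 (9.11 to 7.77) than in line 4 (9.49 to 8.41). At the other end, the member with the smallest mean fall went from 7.34 to 7.03 and from 7.35 to 7.05.

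Few of the falls ended at the floor of the arrays. The floor was taken as the mean array median of the Q74 arrays on day 5, 4.77, plus 0.2. Below this level (4.97) lay 57.3% of all probes on day 5 but 8 of the 182 members (4.4%), and none of the members had been there on day 0. Probes that start near the lowest values cannot fall by the amount the rule asks for, so this contrast follows in part from the rule. These 8 had started between 5.15 and 5.85 and fell by a median of 0.60, against 0.53 for the other 174. By single lines, 6 members ended within 0.2 of the array median or below it in line 4 and 10 in line 6. Ending below the array median itself was seen in 1 member. The number of members under the 75th percentile of all probes rose from 40 on day 0 to 68 on day 5, and the number above the 90th percentile went from 65 to 42. The median member ended at 6.81, still 2.03 above the array median.

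**Figure D5:**
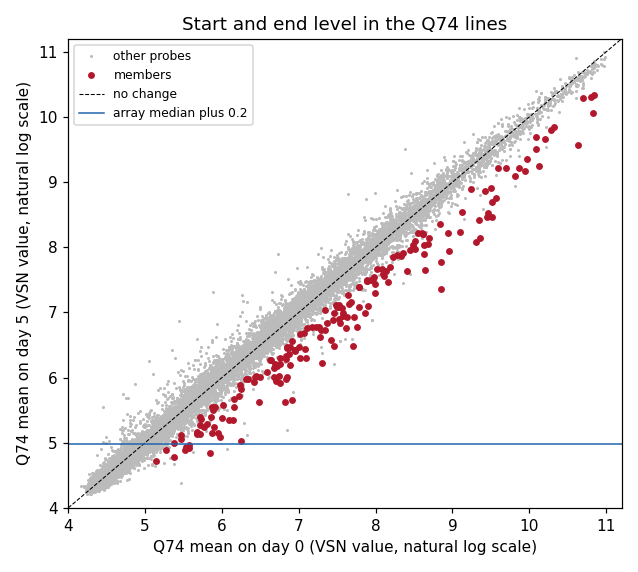
Each point is a probe, with the mean of both Q74 lines on day 0 on the x axis and on day 5 on the y axis (VSN values, natural log scale). The 182 members, in red, run in a band below the dashed line of no change from 5.15 to 10.8 on the x axis, and 8 of them end at or below the blue line at 4.97, the array median plus 0.2.

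Against the Q23 lines, the fall took most members from overlapping levels to lower ones. On day 0 both Q74 lines were below both Q23 lines in 35 members (19.2%, against 16.5% of all probes) and above them in 23 (12.6%, against 15.8%). On day 1 these counts were 59 and 14, where 17.1% and 17.5% of all probes lay in this way. On day 5 they were 161 and 2, where 20.4% and 19.4% of all probes did, and the day 5 counts follow from the rule in large part. The median Q74 minus Q23 difference was -0.06 on day 0, -0.12 on day 1 and -0.58 on day 5, when it was below 0 in 176 members. All 35 members that were below Q23 before induction were so on day 5 as well, which the rule fixes in advance. Differences on day 0 ran from -1.57 to 1.27 on the natural log scale, so some members differed between the lines before induction by more than their fall.

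The change from day 0 to day 5 was called lower in Q74 than in Q23 for 168 of the 182 members by limma, blocked by line, and for 1.51% of all probes. The rule used the same arrays, and nothing is read from this count. All 182 had an unadjusted p under 0.05, and the largest adjusted p among them was 0.18. The count was much lower without either Q23 line, fits that leave 1 line in Q23. The rule applied to the second or to the first isolation alone gave 95 of 143 or 87 of 168 probes. Without the line as a replicate block no member was called.

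PC12 cells without a construct, which were not used in the choice, showed no fall of the size in the Q74 lines. The median change from day 0 to day 5 was -0.035, with a range of -0.19 to 0.20, and none of the 182 fell by 0.3. A change smaller than 0.2 was seen in 181 members, as in 99% of all probes. In the 2 series of PC12 arrays the members changed by medians of -0.03 and -0.04, against -0.0092 and -0.0058 over all probes. A fall of any size was seen in 129 members (70.9%), against 54.3% of all probes, and in both series in 72 members (39.6%), against 29.6%. The 167 rising probes shared this, with a fall in 113 of them (67.7%) and a median of -0.021. For the same 182 members the median was -0.00068 after quantile normalization and -0.050 after centring on array medians. By day 1 the median change was -0.0052. The PC12 arrays were taken as 1 culture and not tested. The study describes them as technical replicates only, although their codes differ in the place that numbers the lines with a construct.

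Before induction the members lay somewhat higher in the lines with a construct than in PC12 cells. The median member was 0.16 higher in the Q74 lines and 0.20 higher in the Q23 lines than in PC12 cells, against 0.03 for the Q74 lines over all probes. PC12 cells were below all 4 lines in 89 members (48.9%, against 39.6% of all probes), above all 4 in 39 (21.4%, against 27.5%) and within their range in 54. By day 5 the median member in the Q74 lines was 0.35 below PC12 cells of the same day. Both Q74 lines were then below PC12 cells in 118 members (64.8%, against 36.3% of all probes) and above them in 37 (20.3%, against 44.3%). Of the 118, 48 had been below PC12 cells in both Q74 lines on day 0, and 35 had been above them in both. The Q74 arrays of days 0 and 5 chose the members, so these day 5 differences follow from the rule in large part.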

How the data were processed

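The authors took bead means per probe from BeadStudio, left the background uncorrected and normalized with VSN. The deposited values lie on a log-like scale and were read as natural log values from their range (3.91 to 11.1). The log base, and whether all arrays were normalized together, are not given in the sources used here. Array chips and dates were not known, so batches were not tested.

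Averaging the isolations gave 12 values per probe from 4 lines, and the lines were the biological replicates. All 22521 probes entered a group-means fit (limma 3.58.1, R 4.3.3), in which Q74 was compared with Q23 on day 1 (6 residual degrees of freedom, with the repeat of each line on 3 days not modelled). Changes from day 0 were fitted with the line as a block, since the same line stands on each day (4 residual degrees of freedom). Tests were two-sided, with Benjamini-Hochberg adjustment over all probes. Both fits were run on simulated data with independent noise and no line differences. Such data cannot show how the fits handle a line measured on 3 days. PC12 arrays entered no fit. Members, limits and tests were chosen with earlier results of these data known. Named probes are the member with the largest mean fall and, among 164 members starting at least 1 above the array median, the one with the largest day 1 share. Gene lists and cell type markers were not used, as probes carried no gene names in the tables used here. Figures were drawn with Python 3.11.15 and matplotlib 3.10.9. Alternatives were other scalings, single RNA isolations, other limits, other fits and leaving out lines. The day 1 arrays alone, the line as a random block (duplicateCorrelation) and scalings with the members kept were added after the data had been seen.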

Additional observations from a re-analysis of the deposited data

How the results depend on the processing

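The rule took 199 probes after quantile normalization (173 of them members), 164 after centring on array medians (161 of them members), and 143 and 168 on the second and the first RNA isolation alone. It took 55 with a fall of 0.5 or more, 414 with 0.2 or more and 96 with a Q23 window of 0.1. The median day 1 share lay between 0.11 and 0.20 in all 8 alternatives. Members near the floor numbered 68 with the 75th percentile as the floor and 1 with the array median. Members called on day 1 numbered 0 to 49 without single lines or isolations, 9 when RNA isolations entered as samples and 10 when the isolation number was also a replicate block. They numbered 0 on the day 1 arrays alone, and 2 in the other 5 alternatives, a random line block among them. Isolation differences correlated above 0.1 in 41 of 66 pairs, with a median r of 0.18 and a range of -0.31 to 0.57. Whether samples with the same isolation number were handled together was not tested. Members whose change to day 5 was called numbered 26 to 176 without single lines or isolations, and 0 without the line as a replicate block. Counts of fits without a line are not given here, since the lone partner is taken to vary as the other construct does. The median PC12 change was -0.0056 after quantile normalization and -0.050 after centring with the members chosen again, -0.00068 and -0.050 with the members kept, and -0.031 and -0.042 on the second and the first isolation. The cause of these shifts was not tested. The number of lines limits what the tests can show, and folds of dim probes are understated.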
